A study of Caenorhabditis elegans with 12 samples.

Results

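The cytosolic ribosomal protein genes of Caenorhabditis elegans were taken as every gene whose name begins with rpl- (large subunit), rps- (small subunit) or rla- (acidic stalk of the large subunit), which gave 78 of the 39665 named genes in each of the deposited tables. Of these, 44 were rpl-, 31 were rps- and 3 were rla- genes. The rule used names alone and no measured value, although it was set with earlier results of these data known. The eukaryotic ribosome is built from a small subunit that reads the mRNA and a large subunit that joins amino acids. Each subunit is a scaffold of ribosomal RNA decorated with proteins that are mostly present in a single copy. The stalk proteins recruit the elongation factors that drive each round of synthesis. In the adult worm the gonad stocks its oocytes with ribosomes for the embryo.

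RNA was prepared from whole adults of 2 genotypes, both grown at 20 C on NGM plates with the E. coli strain OP50. The wild type was N2, whose XX animals are hermaphrodites that make their own sperm and then oocytes. The mutant was JK574, homozygous for fog-2(q71), whose XX animals are females that make oocytes but no sperm of their own. FOG-2, together with its partner GLD-1, represses translation of a feminizing mRNA in the hermaphrodite germline, which lets sperm form. Each of 3 biological replicates per genotype was made into 1 library primed from the poly(A) tail with oligo-dT and 1 primed along the RNA with random hexamers, for which no tail is needed. The 12 libraries thus form 4 groups of 3 samples, and the stated purpose was to learn whether fog-2 activity affects polyadenylation. Depth per library is unknown, because each genotype and priming has a single pooled FPKM value per gene (fragments corrected for gene model length and library size). Samples were placed by their titles, and of the libraries titled N2, 1 with each priming carries the strain label N3. In addition, 1 library titled as N2 with hexamers is described as primed with oligo-dT. Pooled values cannot check a single library. As pooled, the targeted gene went with the titles: the fog-2 mRNA stood at 64.2 FPKM in N2 against 14.4 FPKM in the mutant with oligo-dT, and at 34.9 against 7.08 FPKM with hexamers. Sperm markers had a fold below 0 in 34 of 34 tested genes of a list of 38 with oligo-dT, at summed levels of 179 FPKM in N2 and 45.5 FPKM in fog-2, with none listed at 0 in either. Of these 34, 15 passed the authors' test, lower in fog-2. With hexamers only 6 of the 38 were tested, all with a fold below 0, and none passed. Germline and oocyte markers summed to 4385 FPKM in N2 and 4039 FPKM in fog-2 with oligo-dT, where 7 of 9 tested had a fold below 0. With hexamers they summed to 7370 and 7309 FPKM, where 9 of 11 had a fold above 0 and cgh-1, the most abundant, was at 3390 and 3170 FPKM. None of these germline markers passed the authors' test. Of 4 tested intestinal markers with oligo-dT, 2 had a fold above 0 and 2 below, and 1 passed. That was cpr-1, lower in fog-2 at 656 and 355 FPKM (q = 0.00636 in the authors' deposited table). With hexamers 5 of 8 intestinal markers had a fold above 0, at a median of 0.03, and none passed. The part of cpr-1 in the results was not tested. Early-embryo markers had a fold above 0 in 3 of 7 tested with oligo-dT and in 1 of 4 with hexamers. Among them, pes-10 was at 9.88 FPKM in N2 and 13.1 FPKM in fog-2 with oligo-dT, and at 4.67 and 7.50 FPKM with hexamers. Of 6 body wall muscle markers, 2 had a fold above 0 with oligo-dT and 4 with hexamers. No early-embryo or muscle marker passed, where 1.43% of all tested genes did with oligo-dT and 0.822% with hexamers. The RNA is of whole animals, so fewer cells of a type and less RNA per cell cannot be told apart.

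In wild-type worms these genes were among the most abundant mRNAs with either priming. With oligo-dT, 64 of the 78 were tested by the authors, and their median level in N2 was 5330 FPKM, with quartiles of 4403 and 6083 FPKM, against a median of 4.23 FPKM over all 16396 tested genes. With hexamers 76 were tested, at a median of 2155 FPKM in N2 and quartiles of 1730 and 2434 FPKM, against 26.2 FPKM over all 9855 tested genes. They made up 60 of the 100 tested genes with the highest N2 level with oligo-dT and 65 of 100 with hexamers. By summed FPKM they held 31.8% of all tested protein-coding genes in N2 and 31.7% in fog-2 with oligo-dT, although they were 0.520% of those genes. With hexamers their share was 21.1% in N2 and 22.8% in fog-2, from 0.931% of the genes. Over the protein-coding genes tested with both primings, the shares were 32.1% and 31.9% with oligo-dT and 21.0% and 22.5% with hexamers.

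Apart from a few low members, levels within the family were narrow. Over all tested members, N2 levels ran from 3.04 to 12973 FPKM with oligo-dT and from 77.9 to 4091 FPKM with hexamers. The narrower ranges below are for genes above 1000 FPKM, a limit chosen after the data were seen. Of the 63 genes tested with both primings, 60 exceeded 1000 FPKM in N2 with oligo-dT, and these ran from 3285 FPKM (rps-2) to 12973 FPKM (rps-25), a 3.95-fold range. With hexamers the same 60 genes spanned a 2.93-fold range in N2, from 1372 FPKM (rpl-5) to 4022 FPKM (rps-25). In fog-2 the corresponding ranges were 4.30-fold with oligo-dT and 4.27-fold with hexamers. Large-subunit genes had a median of 5086 FPKM in N2 with oligo-dT and small-subunit genes a median of 5840 FPKM, with quartiles that overlapped (4091 to 5570 and 5206 to 6818 FPKM). Levels in N2 with both primings were ordered alike across the 63 genes (Spearman's rho = 0.82, a description, since both primings used the same RNA and gene models).

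The most abundant small-subunit mRNA was rps-25 (chromosome IV, 5947121 to 5947588, coordinates as in the tables, whose genome build is not stated in the sources at hand), which encodes a protein on the head of the small subunit. It was at 12973 FPKM in N2 and 13779 FPKM in fog-2 with oligo-dT, and at 4022 and 5759 FPKM with hexamers. The decoding-centre protein gene rps-23 followed with oligo-dT at 9618 FPKM in N2 and 9779 FPKM in fog-2. The large-subunit gene rpl-38 (chromosome V, 15512176 to 15512661), whose mouse counterpart is known for its part in translating Hox mRNAs, was at 9134 and 10077 FPKM with oligo-dT. With hexamers the highest N2 level was that of rpl-39, a very small protein that lines the exit tunnel, at 4091 FPKM and at 5230 FPKM in fog-2. It was followed by rps-25 and by rps-8, at 3921 FPKM in N2 and 4764 FPKM in fog-2. Of the stalk genes, rla-1 had 7892 and 8233 FPKM with oligo-dT, above rla-0 at 4321 and 3865 FPKM and rla-2 at 3777 and 3803 FPKM. In the ribosome the P0 protein, product of rla-0, is the base on which dimers of the P1 and P2 proteins (rla-1 and rla-2) sit.

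**Figure D1:**
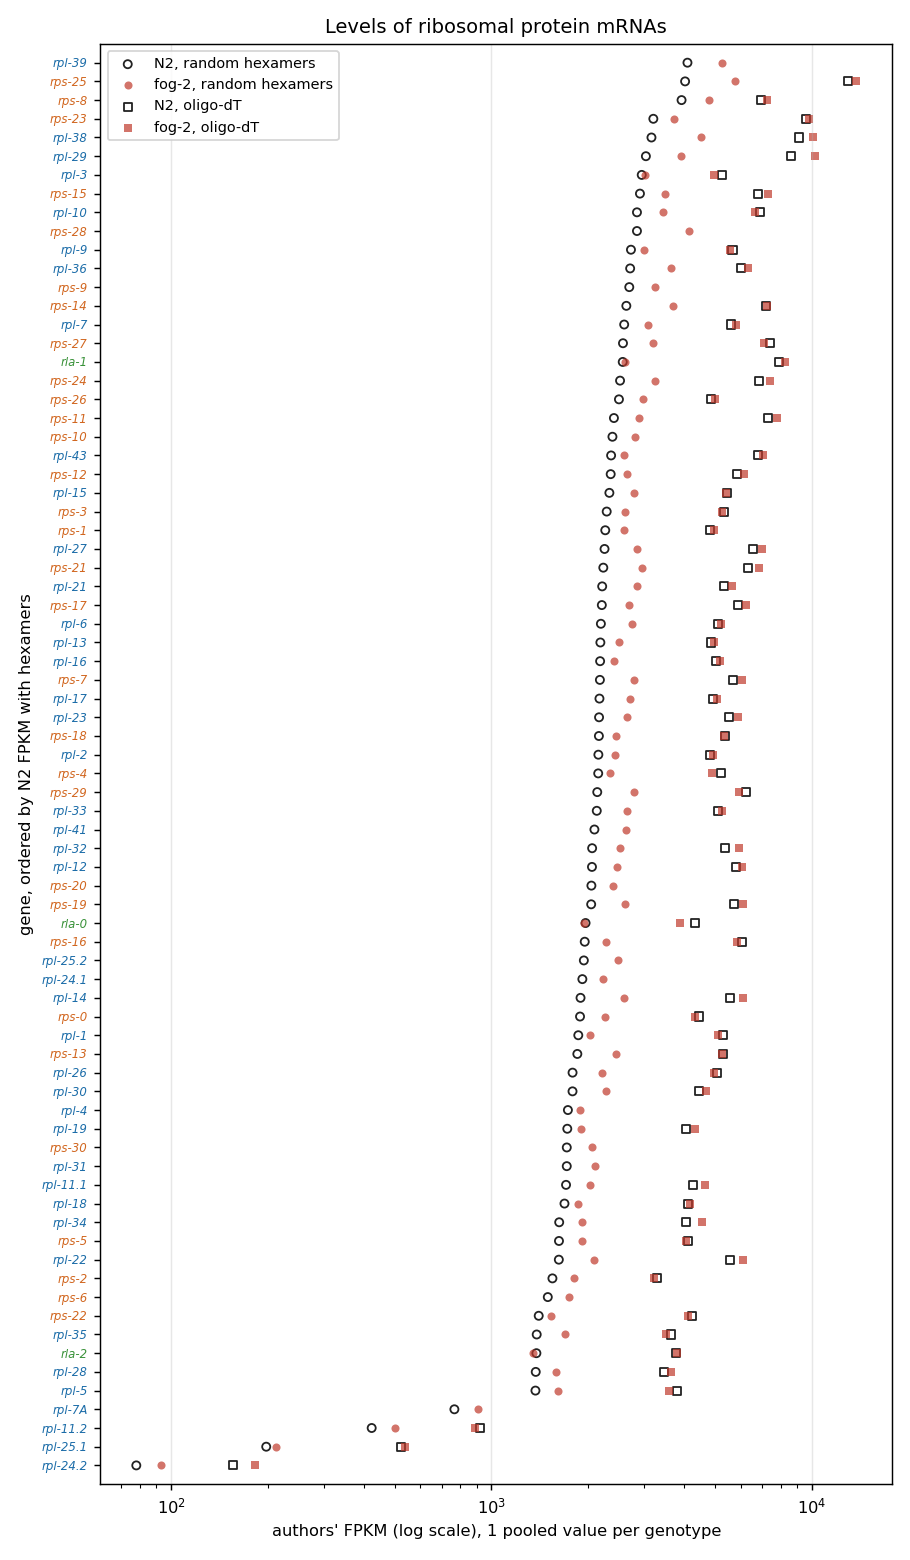
Authors' FPKM (log axis) of each ribosomal protein gene tested with hexamers, for N2 (open) and fog-2 (filled), with hexamers (circles) and oligo-dT (squares, where tested), each point being 1 pooled value. All but 4 genes lie above 1000 FPKM in N2 with hexamers, and rpl-24.2, at 77.9 FPKM, is the lowest.

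At the low end stood gene copies. The lowest of all was rpl-37, at 3.04 FPKM in N2 and 2.92 FPKM in fog-2 with oligo-dT. With hexamers it was at 0.494 and 0.757 FPKM, too low to be tested by the authors. RefSeq calls this gene rpl-37.2 and gives its sister, W01D2.1, as rpl-37.1. W01D2.1 (chromosome II, 14815441 to 14816020) carries no rpl- name in the tables and so stands outside the 78 genes. It was at 5104 FPKM in N2 and 5676 FPKM in fog-2 with oligo-dT, and at 2031 and 2450 FPKM with hexamers. The rpl-37 gene model has no intron, which held for 2 of the 77 genes matched to the WBcel235 annotation, the other being rpl-43 at 6774 FPKM in N2 with oligo-dT. A second gene outside the name rule, Y37E3.8 (rpl-27A in RefSeq), was at 8096 and 8684 FPKM with oligo-dT and at 2686 and 3489 FPKM with hexamers.

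The pairs with numbered copies differed by 4-fold or more in every comparison that could be made. In worms, autosomal copies of such pairs are known to serve the germline, where the X chromosome is largely silent. The autosomal rpl-11.1 (chromosome V, 3585365 to 3586055) was at 4247 FPKM in N2 and 4630 FPKM in fog-2 with oligo-dT. Its X-linked partner rpl-11.2 was at 919 and 887 FPKM, so that the ratio of the copies was 4.62 in N2 and 5.22 in fog-2. With hexamers the ratios were 4.04 and 4.07, from 1709 over 423 FPKM in N2 and 2035 over 499.8 FPKM in fog-2. Both encode the protein that binds the smallest large-subunit ribosomal RNA together with RPL-5. For rpl-25, which encodes a protein at the tunnel exit, the autosomal rpl-25.2 was at 1943 and 2487 FPKM with hexamers and the X-linked rpl-25.1 at 198 and 213 FPKM. The ratio was 9.80 in N2 and 11.7 in fog-2. The third pair is not a pair of like proteins by its modern names, since RefSeq calls rpl-24.2 rsl-24D1, whose human counterpart is an assembly factor replaced by RPL24 as the large subunit matures. It was at 77.9 FPKM in N2 and 93.3 FPKM in fog-2 with hexamers, against 1922 and 2237 FPKM for rpl-24.1, ratios of 24.7 and 24.0. Reads shared between near-identical copies could have been split by the authors' counting, so ratios between copies are uncertain. Replicate error of these ratios cannot be given from pooled values. In addition, rpl-11.2, rpl-24.1 and rpl-25.2 came from crowded loci of 87, 178 and 144 gene models, where errors were wider, as described below. These X-linked genes, rpl-11.2 and rpl-25.1, were the only members on the X chromosome, 2.63% of the tested members with hexamers against 13.6% of all tested genes.

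**Figure D2:**
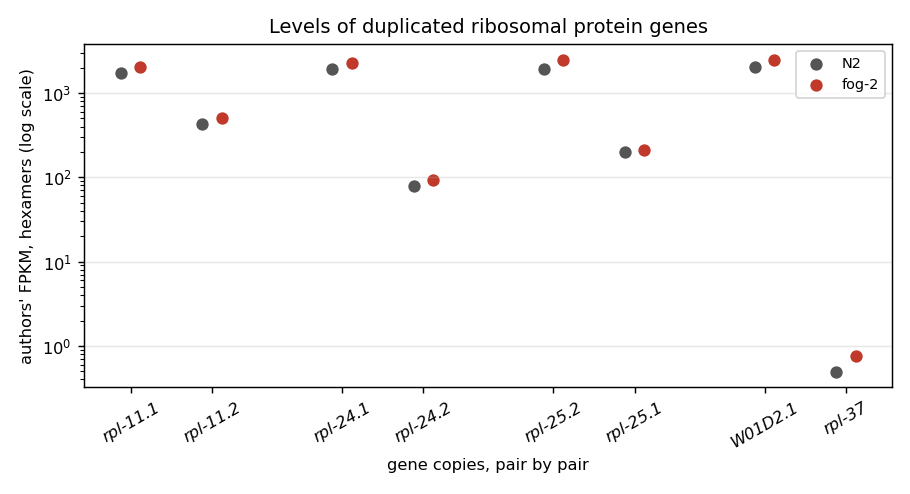
Authors' FPKM with hexamers (log axis) of 3 pairs of ribosomal protein gene copies, and of rpl-24.1 beside rpl-24.2 (rsl-24D1 in RefSeq), in N2 (grey) and fog-2 (red), 1 pooled value each. In each pair the copies lie farther apart than the genotypes; rpl-37 was not tested by the authors with hexamers.

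Between the genotypes, oligo-dT levels of ribosomal protein genes differed by little, and no gene passed the authors' test. The median level was 5330 FPKM in N2 and 5278 FPKM in fog-2 over the 64 tested genes. Log2 folds, fog-2 over N2, had a median of 0.04 and ran from -0.16 (rla-0) to 0.25 (rpl-29), against a median of -0.03 over all tested genes. They were above 0 for 42 genes and below 0 for 22, where 46.1% of all tested genes lay above 0. By the authors' deposited table, 0 of the 64 genes had a q-value of 0.05 or less (the share of all tested genes was 1.43%), and 0 had an unadjusted p under 0.05 (8.45% of all tested genes). At the looser limit of q at or under 0.1 the count was also 0, against 1.81% of all tested genes. By subunit, the median fold was 0.05 for 36 large-subunit genes and 0.02 for 25 small-subunit genes. The stalk genes had folds of -0.16, 0.06 and 0.01.

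The gene with the highest oligo-dT fold was rpl-29 (chromosome IV, 13882216 to 13882559), which encodes a small protein of the large subunit. Its level was 8596 FPKM in N2 and 10194 FPKM in the mutant, for a log2 fold of 0.25 with an implied SE of 0.14, and the authors' deposited table gives p = 0.0806 and q = 0.690, the smallest of the family. The implied SE is the size of the log2 fold over the normal quantile that the authors' p-value corresponds to. Next came rpl-24.2 at a log2 fold of 0.23 (156 and 183 FPKM) and rpl-34 at 0.16 (4057 and 4542 FPKM). At the other end, rla-0 had a fold of -0.16 with an implied SE of 0.16. It was followed by rps-4 at -0.09 (5206 and 4877 FPKM) and rpl-5 at -0.08 (3787 and 3585 FPKM). The 95% intervals from the implied SE lay between -0.59 and 0.54 on the log2 scale for every tested gene. At the family's median implied SE of 0.149, an observed log2 fold of about 0.51, or 1.42-fold, would have been needed to match the p-values of called genes. Genes with a smaller implied SE would have needed less.

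With random hexamers almost all of the genes had a fold slightly above 0, and none passed the authors' test. The median level was 2155 FPKM in N2 and 2591 FPKM in fog-2. Log2 folds had a median of 0.26 and ran from -0.03 (rla-2) to 0.54 (rps-28), and 74 of 76 were above 0. All tested genes leaned the same way, with a median of 0.10 and 67.1% above 0, and after this shift was subtracted the family's median was 0.16, with 72 of 76 above 0. Of the 76 genes, 0 had a q-value of 0.05 or less by the authors' deposited table, against 0.822% of all tested genes, and 0 had one at or under 0.1, against 1.11%. An unadjusted p under 0.05 was found for 16 of them, all higher in fog-2, a share to be read against 6.37% of all tested genes in that direction. With the shift of all genes subtracted, 4 had an unadjusted p under 0.05, against 2.82% of the 9705 tested genes with a finite fold, and 0 passed Benjamini-Hochberg adjustment, against 0.938%. The ribosomal RNA gene rrn-2.1 also differed between these libraries, at 4431 FPKM in N2 and 25019 FPKM in fog-2 with hexamers, and its part in the shift was not tested.

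The 16 genes were 8 of the large subunit (rpl-14, rpl-21, rpl-22, rpl-27, rpl-29, rpl-30, rpl-36 and rpl-38) and 8 of the small subunit (rps-7, rps-13, rps-14, rps-19, rps-21, rps-24, rps-25 and rps-29). The smallest p was that of rpl-38, at 3158 FPKM in N2 and 4521 FPKM in the mutant. Its log2 fold was 0.52 with an implied SE of 0.17 (95% interval 0.18 to 0.85), and the authors' deposited table gives p = 0.0024 and q = 0.162. The head protein gene rps-25 had the same fold, 0.52 (implied SE 0.19), and the authors' deposited table gives it q = 0.247. The platform protein gene rps-14 was at 2636 and 3678 FPKM, and its log2 fold of 0.48 (implied SE 0.19) carries q = 0.352 in the authors' deposited table. The others had folds between 0.33 (rpl-27) and 0.45 (rpl-14), and all 16 missed adjustment. The highest fold, 0.54 for rps-28 (2845 and 4123 FPKM), had an implied SE of 1.34.

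The 3 stalk genes with an rla- name stood at the bottom of the hexamer order. RefSeq calls rla-2 rplp-2.2, and a sister copy outside the name rule was not examined. The level of rla-0 was 1967 FPKM in N2 and 1938 FPKM in fog-2, that of rla-1 was 2569 and 2615 FPKM, and that of rla-2 was 1381 and 1349 FPKM. Their log2 folds of -0.02, 0.03 and -0.03 (implied SE 0.17, 0.15 and 0.16) were the 3 lowest of 76, below rpl-3 at 0.04. With the shift of all genes subtracted, rla-1 and rpl-3 change sign, to -0.076 and -0.065. The 95% intervals of the stalk genes reached 0.27 to 0.33 at their upper ends and overlapped those of every other tested member, and no difference between the stalk and the rest was tested.

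**Figure D3:**
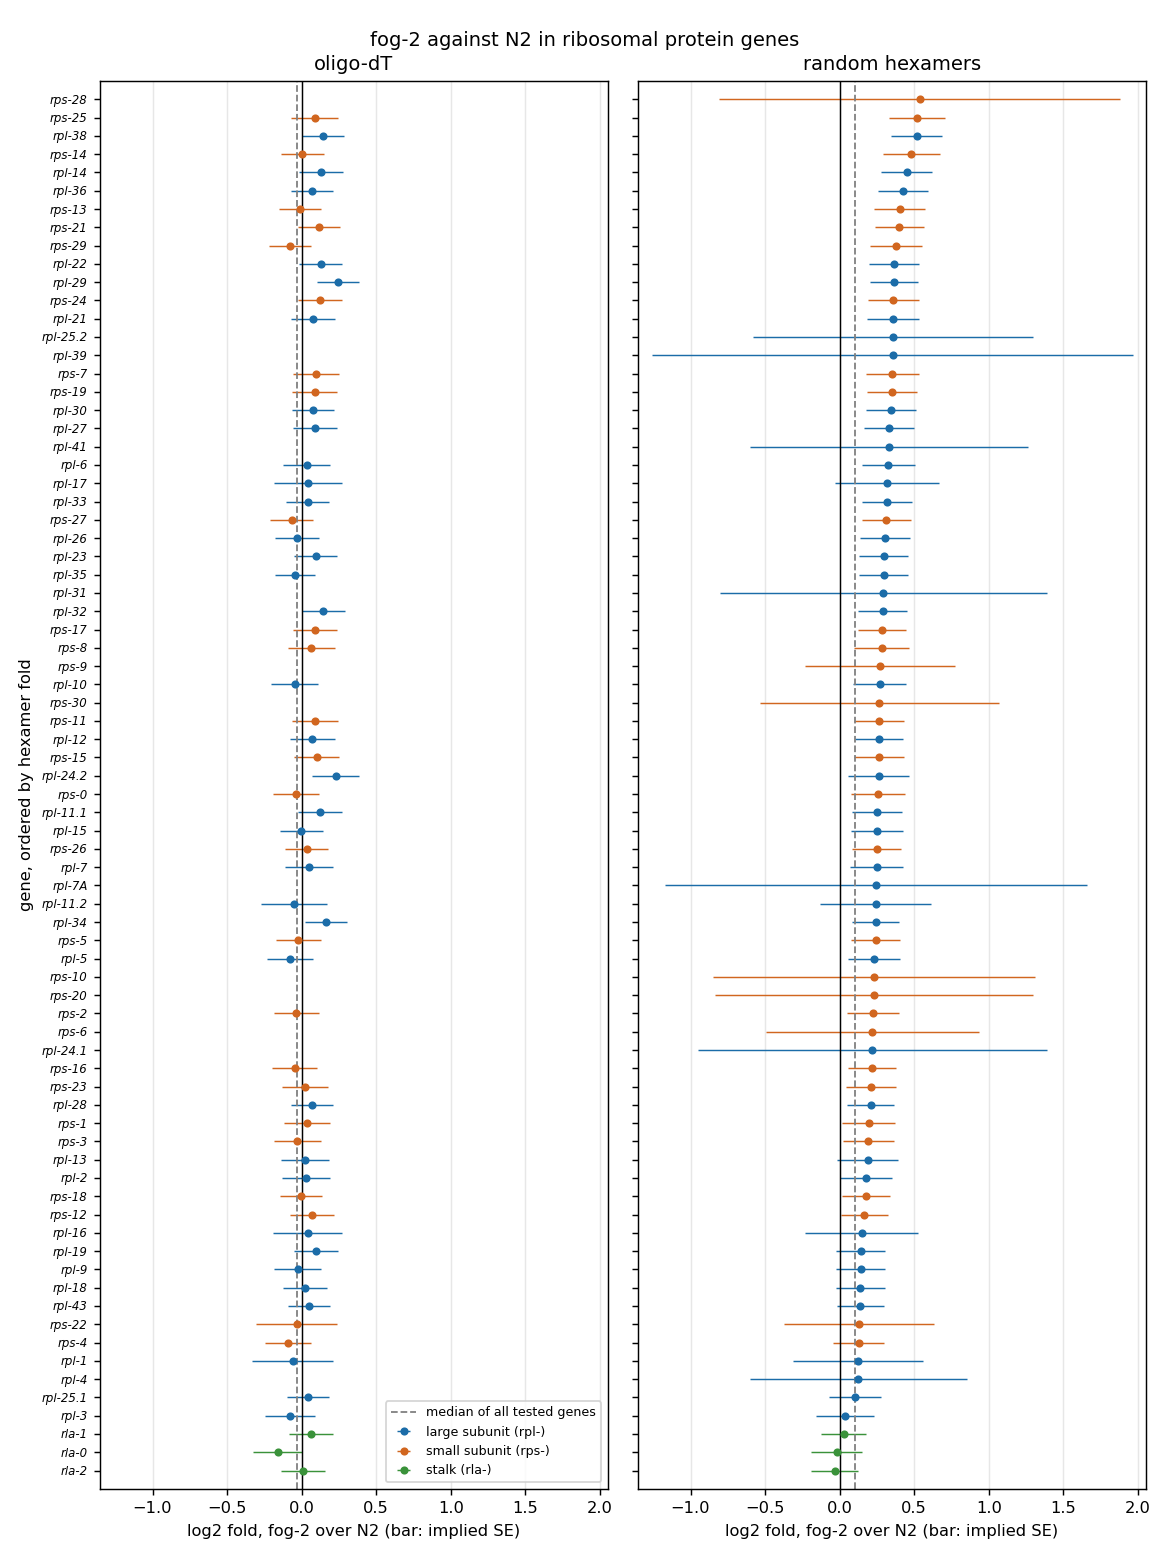
Log2 fold, fog-2 over N2, of each ribosomal protein gene with oligo-dT (left) and hexamers (right), with bars of 1 implied SE, ordered by the hexamer fold; rpl-37 and rpl-42 are not drawn. The dashed line is the median of all tested genes, and 74 of 76 hexamer folds lie above 0, with the 3 stalk genes (green) at the bottom.

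**Figure D4:**
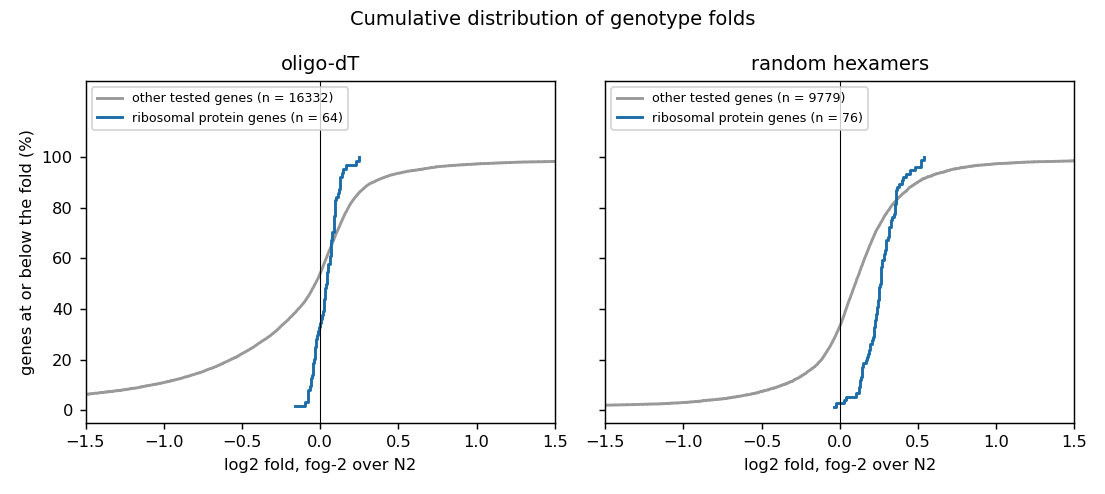
Cumulative share of genes (%) by log2 fold, fog-2 over N2, for ribosomal protein genes (blue) and all other tested genes (grey) with each priming. The blue curves are steep, centred at 0.04 with oligo-dT and 0.26 with hexamers, while the grey curves spread over more than the plotted range.

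Other highly expressed genes were set beside the family. Among genes with a mean of both genotypes at or above 1000 FPKM, a limit chosen after the data were seen, the 125 other genes had a median log2 fold of 0.06 with oligo-dT, against 0.04 for 60 ribosomal protein genes. With hexamers the 85 other genes had a median of 0.17, against 0.26 for 72 ribosomal protein genes. This difference was not tested.

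Whether the genotype difference depended on priming was asked by subtracting the hexamer log2 fold from the oligo-dT log2 fold. Of the 63 genes tested with both, 61 had the higher fold with hexamers, where 60% of the 8593 genes tested with both did. Centred on the median of those genes (-0.06), the family's differences had a median of -0.16 and ran from -0.42 (rps-14) to 0.10 (rla-2). In a two-sided normal test on the combined implied SEs with Benjamini-Hochberg adjustment, 0 of the 63 passed, as did 0 of all 8593 genes. With the SEs scaled by a factor of 0.645 (set so that the median absolute z over the table matches a standard normal), 58 of the 8593 genes passed and 0 of the 63. The smallest unadjusted p in the family by this test, which builds on the p-values of the authors' deposited table, was 0.0758 for rps-29 (adjusted p = 1). Its folds were -0.08 with oligo-dT and 0.38 with hexamers. Across all genes 1.08% had an unadjusted p under 0.05 with the higher fold in hexamers, and 0.524% with the higher fold in oligo-dT. For rps-14 the folds were 0.00 and 0.48, a centred difference of -0.42 with a combined SE of 0.24. The same RNA samples entered both primings, and the combined SE takes the folds as independent. The N2 hexamer group also holds the 1 library described as primed with oligo-dT.

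Relative to other genes, ribosomal protein mRNAs had lower values with hexamers than with oligo-dT in both genotypes. The log2 ratio of hexamer to oligo-dT FPKM had a median of -1.33 in N2 and -1.13 in fog-2 over the 63 genes, against -0.59 and -0.56 over all 8593 genes. All 63 lay below the median of all genes in each genotype, and 7.44% of all genes had a ratio below the family's median in N2. Ratios in N2 ran from -1.78 to -0.82. The lowest were those of rpl-22 (5558 FPKM with oligo-dT and 1623 FPKM with hexamers), rps-25 at -1.69 and rps-16 at -1.63. The highest were those of rps-8 at -0.82 (6929 and 3921 FPKM), rpl-3 at -0.83 (5237 and 2945 FPKM) and rps-26 at -0.96 (4858 and 2500 FPKM). The tables were normalized separately, so the position of the family among all genes can be read from these ratios and an absolute recovery cannot. The N2 hexamer values pool 1 library described as primed with oligo-dT, and its effect on the ratios was not tested.

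Transcript length went with these ratios. Exon length by WBcel235, 236 to 1334 bases with a median of 507 over 77 genes, had a Spearman's rho of 0.58 with the N2 ratio over 63 genes, shorter mRNAs having the lower hexamer values relative to oligo-dT. Over 7312 genes tested with both primings the rho was 0.68. The genotype folds also varied with length: rho was -0.40 with oligo-dT (64 genes) and -0.50 with hexamers (75 genes), against -0.03 and -0.19 over other tested genes. These are descriptions across genes of the same libraries, and genes are not independent replicates. With hexamers, 19 genes under 450 bases had a median log2 fold of 0.35, 39 genes of 450 to 700 bases a median of 0.26, and 17 longer genes a median of 0.22. The corresponding medians with oligo-dT were 0.08, 0.03 and -0.03. Of the 16 genes at an unadjusted p under 0.05 with hexamers, 9 were under 450 bases, 6 were of 450 to 700 bases and 1 was longer. The stalk genes rla-1 and rla-2, at 441 and 451 bases, had lower hexamer folds than every other tested gene of up to 700 bases.

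**Figure D5:**
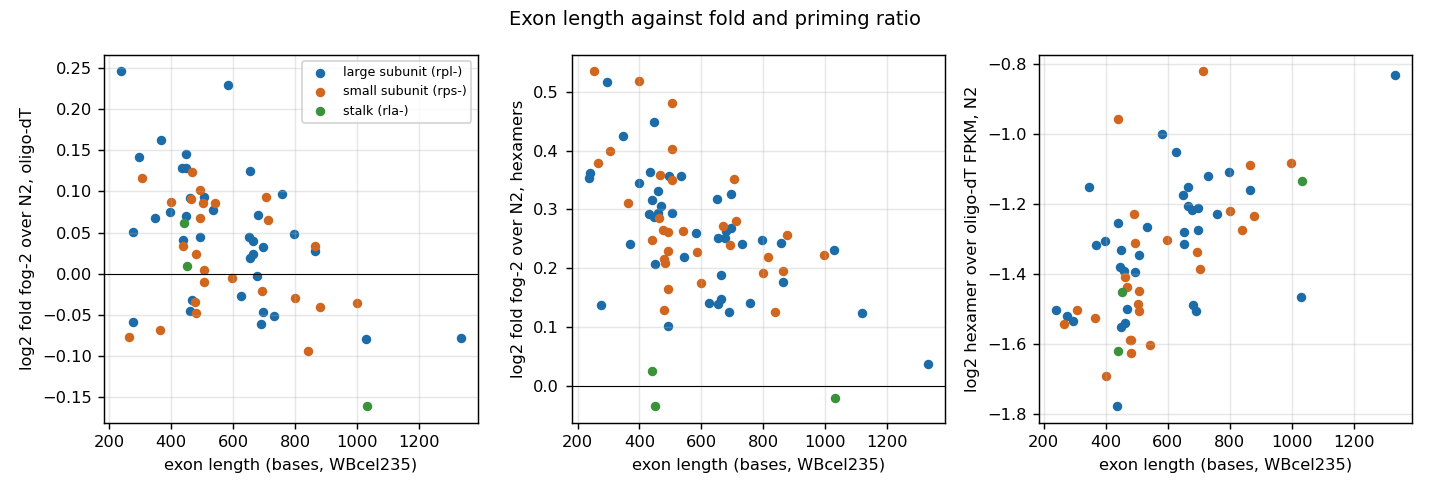
Exon length in bases against the log2 fold with oligo-dT (left), the log2 fold with hexamers (middle) and the log2 ratio of hexamer to oligo-dT FPKM in N2 (right), 1 point per ribosomal protein gene. Folds decline with length (rho -0.40 and -0.50) and the ratio climbs with it (rho 0.58), with the stalk genes in green.

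Some members could be measured only in part, because the authors' tables join overlapping gene models into shared loci. With oligo-dT, 14 genes were marked as having too many fragments in their locus and are listed at a placeholder of 0: rpl-4, rpl-7A, rpl-24.1, rpl-25.2, rpl-31, rpl-39, rpl-41, rpl-42, rps-6, rps-9, rps-10, rps-20, rps-28 and rps-30. They lay in 7 loci of 144 to 591 gene models each, and these zeros are not levels. Some of these loci held several members, such as rpl-31, rps-6 and rps-20 on chromosome I. With hexamers 13 of them were tested, at a median of 1943 FPKM in N2 and 2400 FPKM in fog-2, and at log2 folds between 0.12 (rpl-4) and 0.54 (rps-28). Only rpl-42 had no value with either priming, being listed at 0 with both. Crowding went with a wider error: 18 genes in loci of more than 50 models had a median implied SE of 0.866 with hexamers (0.350 to 1.61), against 0.168 for 58 genes in loci of at most 5 models. Their median folds were 0.24 and 0.26, and all 16 genes at an unadjusted p under 0.05 were in loci of at most 5 models. The level of rpl-37 with oligo-dT comes from a locus of 97 models, where its implied SE of 0.04 at 3.04 FPKM is the smallest of the family.

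Introns of ribosomal protein genes often house small nucleolar RNAs, which guide the modification of ribosomal RNA. By the WBcel235 annotation 13 of the 77 matched genes held 19 snoRNA genes on their own strand (rpl-2, rpl-4, rpl-6, rpl-7, rpl-7A, rpl-15, rpl-24.1, rpl-26, rps-4, rps-12, rps-13, rps-23 and rps-29). Their median log2 fold was 0.24 with hexamers, against 0.26 for 62 genes without a snoRNA, and 0.01 against 0.05 with oligo-dT. The log2 ratio of hexamer to oligo-dT FPKM in N2 was -1.29 for 10 hosts and -1.34 for 53 other genes. The difference between hosts and other genes was not tested.

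Among genes that work with the ribosome, none of those tested passed the authors' test. The share of all tested genes that passed was 1.43% with oligo-dT and 0.822% with hexamers. In lists this short a count of 0 is near that share. With hexamers the medians of the elongation, initiation and assembly lists lay between that of all tested genes (0.10) and that of the family (0.26). The list of ubiquitin fusions and ribosome-associated proteins was level with the family, at 0.26 (4 tested). With oligo-dT its median was 0.07 (3 tested). Elongation factors carry tRNA to the ribosome and move it along. Their median log2 fold was -0.01 with oligo-dT (7 tested) and 0.19 with hexamers (8 tested). With oligo-dT 1 of 7 had an unadjusted p under 0.05, lower in fog-2, against 8.45% of all tested genes in either direction. With hexamers 1 of 8 did, also lower in fog-2. No share over all genes is given for that direction, so this count is not read as a result. Of the elongation factors, eef-1A.1 was at 4122 FPKM in N2 and 5418 FPKM in fog-2 with hexamers, a log2 fold of 0.39 with an implied SE of 0.27. The level of eef-2, whose product is recruited by the stalk, was 1473 and 1736 FPKM with hexamers. Its log2 fold of 0.24 had an implied SE of 0.24, and with oligo-dT it was at 2217 and 2033 FPKM. Initiation factors had medians of -0.04 (14 tested) and 0.12 (16 tested), and 3 of them had an unadjusted p under 0.05 with hexamers, all higher in fog-2, where 6.37% of all tested genes were. Of the ubiquitin fusions and ribosome-associated proteins, ubq-2, which encodes ubiquitin joined to a large-subunit protein, was at 2339 and 3218 FPKM with hexamers. Its log2 fold of 0.46 had an implied SE of 0.94, and the authors' deposited table gives p = 0.625 and q = 0.999. The nascent-chain factor icd-1 was at 2244 and 2914 FPKM with hexamers, with p = 0.0299 and q = 0.487 in the authors' deposited table. Ribosome assembly and RNA polymerase I genes had medians of 0.04 and 0.16 (15 tested with each priming). With oligo-dT 1 of 15 had an unadjusted p under 0.05, lower in fog-2, against 8.45% of all tested genes in either direction. The rRNA methylase gene fib-1, of this list, was at 361 and 452 FPKM with hexamers.

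The mitochondrial ribosome, a separate set of proteins encoded in the nucleus, gave folds at least as high at far lower levels. Its 65 genes had median N2 levels of 93.8 FPKM with oligo-dT and 40.2 FPKM with hexamers. The median log2 fold was 0.15 with oligo-dT, with 62 of 62 above 0, and 0.29 with hexamers, with 62 of 65 above 0. Of these genes 0 passed with either priming in the authors' deposited table, and 10 of 65 had an unadjusted p under 0.05 with hexamers, all higher in fog-2, against 6.37% of all tested genes. Proteasome subunits, another set of abundant housekeeping proteins, had medians of 0.05 (29 tested) and 0.11 (32 tested), and 2 of 32 had an unadjusted p under 0.05 with hexamers, both higher in fog-2, a share near the 6.37% of all tested genes. Differences between these lists and the cytosolic ribosomal proteins were not tested.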

How the data were processed

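Whole-adult RNA was sequenced from TotalScript libraries, per the labels' protocols, with 3 samples for each genotype and priming. Per the submitters' processing notes, TopHat, Cuffdiff and Cufflinks 2.1.1 were used; no source at hand states the build or gene models. For each priming the authors deposited a Cuffdiff table of genes, which per the file headers gives FPKM, p-value and q-value columns. Each FPKM pools the libraries of a group, so depth and replicate spread are unknown and no count test was run. Samples were grouped by title, although the strain label of 2 and the priming described for 1 hexamer sample differ from their titles. Columns of per-sample values left unused numbered 0.

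Log2 folds were recomputed from FPKM with no pseudocount. Genes were called at the authors' q-value of 0.05 or less, among those they tested. Implied SEs, priming differences and their normal tests (tested on simulated data) used Python 3.11.15, SciPy 1.17.1 and pandas 2.3.3. WBcel235 (77 symbols matched) and RefSeq served for names, exon length and nested genes alone, since the authors' build is not stated. The genes named are the stalk genes, the 3 highest and 3 lowest by level, fold and priming ratio, those with p under 0.05, copy pairs, untested members, and up to 4 most abundant genes of other lists. Members and lists were chosen with earlier results of these data known.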

Additional observations from a re-analysis of the deposited data

How the results depend on the processing

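The counts of called ribosomal protein genes stayed at 0 with a q threshold of 0.1, with folds centred on the median of all tested genes and, for priming differences, without centring, with scaled errors (58 of all 8593 genes passed) or with an FPKM minimum of 1. With the unadjusted p under 0.05 in place of the q-value, the hexamer count was 16 and the oligo-dT count stayed at 0. Median log2 folds ran from 0.04 to 0.07 with oligo-dT and from 0.16 to 0.26 with hexamers over pseudocount, FPKM minimum, shared loci, genes tested with both primings and centring, and the FPKM minimum of 1000 was added after the data were seen. Centring turned the sign of rps-13 with oligo-dT (0.019), and of rla-1 (-0.076) and rpl-3 (-0.065) with hexamers, by subtracting the median of all genes. The other 149 checks of log2 folds of single named genes, each with a pseudocount or centring, kept the direction. Among them, centring took rpl-25.1 with hexamers from 0.10 to 1.4e-05. With centring the hexamer count at an unadjusted p under 0.05 was 4 in place of 16.

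No paired analysis was possible because the tables hold 1 pooled value per genotype and priming. For the same reason the replicate block and leaving out each replicate were not run. The priming ratio needs both tables, so restricting it to genes tested in both gives no other value. At the family's median error, an observed change of about 1.42-fold with oligo-dT or 1.53-fold with hexamers would have been needed for a call.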
